A study of Mus musculus with 8 samples.

Results

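The genes described here are the dual-specificity phosphatases (DUSPs), the Sprouty and Spred proteins and the ETV factors of the PEA3 subfamily, which include the best known transcriptional brakes and outputs of the ERK pathway. They were taken by gene symbol, as every row of the expression table named Dusp followed by a digit, Spry1 to Spry4, Spred1 to Spred3, or Etv1, Etv4 or Etv5, which gave 33 of 34945 named genes. Poly-A RNA of AML12 cells was measured in 4 cultures transfected with Casp8 siRNAs (siCasp8) and 4 transfected with a scrambled siRNA (Scr), each at 40 nM for 48 hours. Casp8 encodes the initiator protease of death receptor signalling, and the study looked for secreted genes that change when it is silenced in hepatocytes. AML12 is an established line of hepatocytes whose donor mouse carried a human TGF-alpha transgene under a metallothionein promoter, and TGF-alpha is a ligand of the EGF receptor. The siCasp8 cultures are labelled Casp8 knockdown and the Scr cultures WT. Both groups were the same line in the same medium with serum, and the series calls the cultures of a group biological replicates without saying how they were separated, so p-values measure the spread between these cultures.

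In the ERK pathway a growth factor receptor activates RAS, which switches on the kinases RAF, MEK and ERK in turn, and ERK then drives transcription through ETS family factors. Among the genes it induces are its own brakes: Sprouty and Spred proteins act between the receptor and RAF, and several DUSPs remove the activating phosphates from ERK itself. Other DUSPs of the same fold act on the stress kinases JNK and p38 or, as the small atypical DUSPs do, on a wide range of substrates. In liver this pathway carries the proliferative signals of EGF and FGF family ligands.

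Values are normalized per gene as deposited, and a gene was tested where its mean over the 8 libraries was at least 10. Estimated depth was 50.5 to 57.1 M reads in the siCasp8 libraries and 30.7 to 51.8 M reads in the Scr libraries, so depth moved with the groups. Casp8 itself was at 1480 ± 108 in siCasp8 and 3972 ± 129 in Scr (SD, n = 4 each), which left 37.3% of the Scr level, a difference of -1.43 on the log2 scale (SE 0.0525, limma adjusted p = 5.94e-09). Of 13 hepatocyte markers 11 were tested, and the line expressed Hnf4a at 6944 in siCasp8 and 6535 in Scr, while the urea cycle gene Cps1 was near 0 in both groups (1.64 in siCasp8 and 0.963 in Scr). Cholangiocyte markers Krt19, Sox9 and Spp1 were also expressed, at 6975, 8774 and 104055 in siCasp8 and 7764, 7900 and 89795 in Scr. The macrophage genes Adgre1, Clec4f and Marco, 3 of a list of 8, were listed at 0 in all 8 libraries. So were the endothelial genes Cdh5 and Lyve1, 2 of a list of 8. The other genes of both lists were above 0 in at least 1 library. Of the tested markers, 5 of the hepatocyte list rose and 2 fell (limma adjusted p under 0.05). By the same test 19.4% of all tested genes rose and 20.8% fell. Alb, the albumin gene, was at 3626 in siCasp8 and 86.4 in Scr. The median log2 fold change of the 11 tested hepatocyte markers was 0.37. The summed hepatocyte list overlapped between the groups, from 123024 to 127925 in siCasp8 and from 124725 to 133618 in Scr. Alb was a small part of that sum in both groups, so the sum says little of Alb or of other low markers. Of 6 tested cholangiocyte markers 2 rose and 3 fell, and the summed list ran from 129235 to 136586 in siCasp8 and from 114619 to 123304 in Scr. Spp1 made up most of that sum in both groups, so the sum says little of the other cholangiocyte markers. These marker sums add normalized values without length. Of 4 tested macrophage markers none rose and 2 fell (summed list 2190 to 2348 in siCasp8 and 2826 to 3029 in Scr), and of 3 tested stellate cell markers 1 rose and 1 fell (110 to 193 in siCasp8 and 133 to 196 in Scr). The single tested endothelial marker was not called (summed list 178 to 302 in siCasp8 and 186 to 536 in Scr). The part of these markers and of depth in the results below was not tested, other than by the fits with depth as a covariate.

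The families of the members differed in direction. Among the ERK feedback genes Etv5, Spry4, Etv4, Dusp5 and Dusp6 rose, Dusp1 fell, and Spred1, Spred2, Spry1, Spry2, Dusp4 and Etv1 did not pass the test. The phosphatases directed at JNK and p38, Dusp8, Dusp10 and Dusp16, all fell. Over all members 27 were tested, of which 7 were higher, 7 lower and 13 not called by limma's test at an adjusted p under 0.05, a share of 51.9% called. The share called among all 14154 tested genes was 40.2%, with 19.4% higher and 20.8% lower. The groups did not overlap for 8 members that were all higher and 8 that were all lower in siCasp8, out of 27, while 37.5% of all tested genes did not overlap (18.0% higher and 19.5% lower). All 14 called members were among these and reached the smallest p that an exact two-sided permutation test of 4 against 4 cultures allows, 0.0286. In bulk RNA, fewer cells of a kind and less RNA per cell cannot be told apart.

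**Figure D1:**
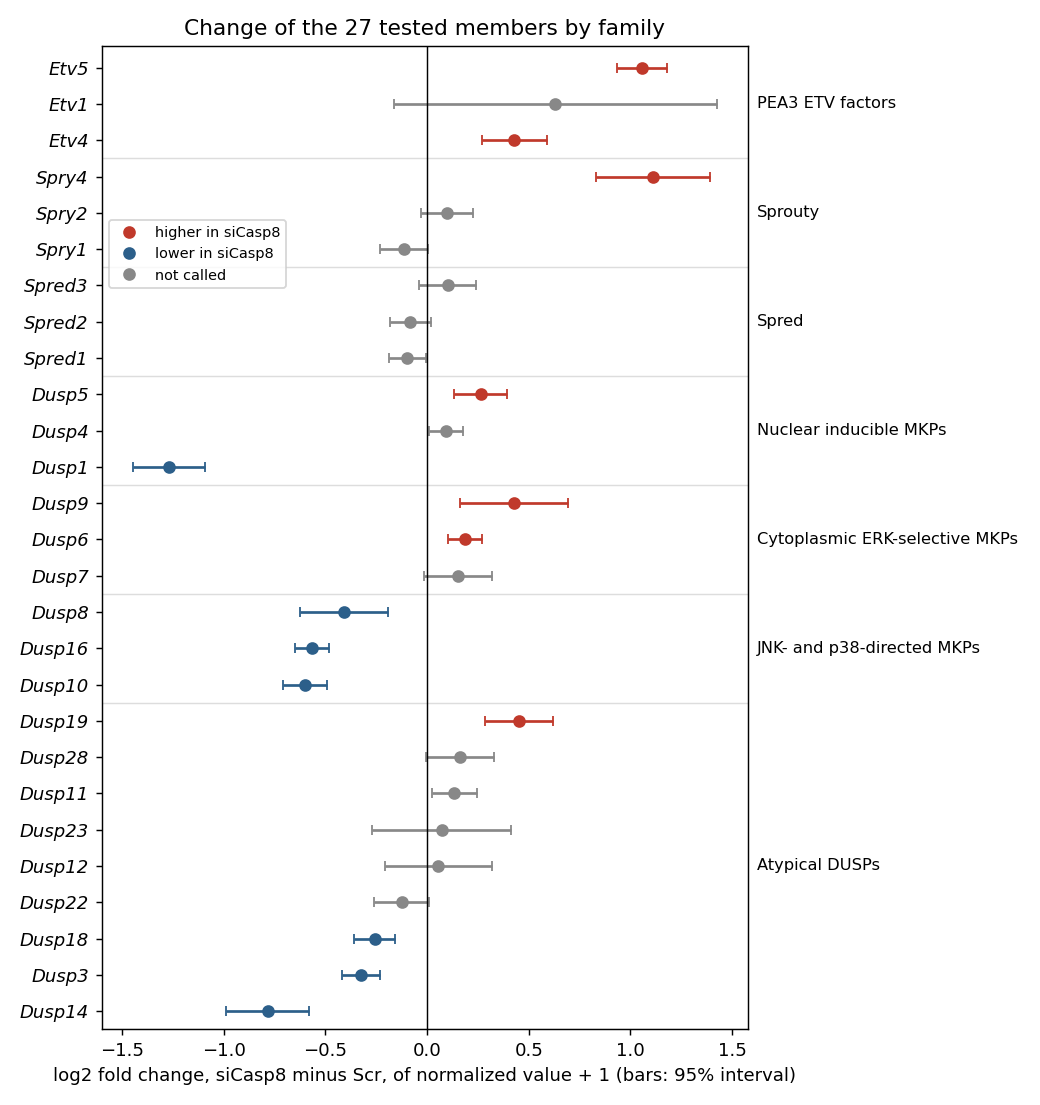
The log2 fold change (siCasp8 minus Scr, of the normalized value + 1) of each of the 27 tested members runs along the horizontal axis, with its 95% interval from limma and the genes grouped by family. The 3 phosphatases directed at JNK and p38 lie left of 0, both called PEA3 factors lie right of it, and Dusp1 stands alone among the nuclear phosphatases at -1.27.

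Stretches before the transcription start are shown for 4 called members, a pair that fell and hold the full cAMP response element and a pair that rose, of which 1 holds CArG boxes and 1 none of the motifs searched. RefSeq start sites (build GRCm38.p6) gave windows for 25 of the 33 members, each from 250 bases before the start to 50 after it. Both strands were searched for the cAMP response element half-site TGACG, its full palindrome TGACGTCA (which holds the half-site on each strand), the AP-1 site TGANTCA, the ETS site CCGGAAG and the CArG box bound by serum response factor. The 250 bases before the start of Dusp1 (chr17:26508473-26508722 on the minus strand) and Dusp8 (chr7:142095285-142095534 on the minus strand), which fell, and of Dusp5 (chr19:53528895-53529144 on the plus strand) and Etv5 (chr16:22439571-22439820 on the minus strand, the first of its 2 windows), which rose, read as follows, with matches in capitals (a half-site on the other strand reads CGTCA).
Dusp1: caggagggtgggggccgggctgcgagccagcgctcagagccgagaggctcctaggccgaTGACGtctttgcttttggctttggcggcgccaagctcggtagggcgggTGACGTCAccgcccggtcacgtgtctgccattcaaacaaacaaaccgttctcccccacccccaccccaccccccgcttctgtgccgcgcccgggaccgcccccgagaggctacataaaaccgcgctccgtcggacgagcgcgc
Dusp8: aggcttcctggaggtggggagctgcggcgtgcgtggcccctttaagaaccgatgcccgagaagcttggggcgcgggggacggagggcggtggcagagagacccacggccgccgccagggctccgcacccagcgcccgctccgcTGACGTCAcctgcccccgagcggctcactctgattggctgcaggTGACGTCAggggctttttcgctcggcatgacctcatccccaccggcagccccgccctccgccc
Dusp5: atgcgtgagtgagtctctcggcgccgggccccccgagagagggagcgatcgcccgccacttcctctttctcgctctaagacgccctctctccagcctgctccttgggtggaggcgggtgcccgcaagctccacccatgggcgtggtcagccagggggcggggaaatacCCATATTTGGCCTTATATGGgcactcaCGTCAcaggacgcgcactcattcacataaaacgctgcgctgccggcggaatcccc
Etv5: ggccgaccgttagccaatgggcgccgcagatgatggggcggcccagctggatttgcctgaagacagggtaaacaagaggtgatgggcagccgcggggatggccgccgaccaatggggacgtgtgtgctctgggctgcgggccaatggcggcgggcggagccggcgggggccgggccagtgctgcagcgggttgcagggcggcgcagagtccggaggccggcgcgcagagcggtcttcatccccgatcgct

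The full palindrome TGACGTCA was found in 2 member windows, those of Dusp1 and Dusp8 (where it occurs at 2 places), and 1.79% of all 32851 promoter windows of this length hold it. The half-site was found in 8 of the 25 members, among them 3 of 7 that fell with a window (Dusp1, Dusp8 and Dusp16), 1 of 3 that rose (Dusp5) and 3 of 12 that were not called, against 20.8% of all windows. Dusp5 was the only one of the 25 members with a CArG box and had 2 of them side by side, from base -82 to -63 before the start, against 1.63% of all windows with at least 1. Neither Etv5 window held any of these letters, and in the 25 members the ETS site was found only in Dusp27, which was listed at 0 in every library, and the AP-1 site only in Dusp13, against 8.86% and 7.81% of all windows. A match describes the letters and says nothing of whether a factor binds there.

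The PEA3 factors Etv1, Etv4 and Etv5 bind DNA at ETS sites, are phosphorylated by ERK and are transcribed when the pathway is active. Etv5 had normalized values of 1101, 1045, 986 and 1008 in siCasp8 replicates 1 to 4, against 492, 513, 496 and 486 in Scr replicates 1 to 4. Every siCasp8 library stood above every Scr library, and the siCasp8 mean of 1035 ± 50.4 was 2.08 times the Scr mean of 497 ± 11.8 (SD, n = 4 each; log2 fold change 1.06, SE 0.0565, limma adjusted p = 5.67e-08). Etv4 had 702, 673, 666 and 619 in siCasp8 libraries and 544, 448, 474 and 512 in Scr libraries. It too was higher in 4 of 4 siCasp8 libraries, by 0.43 (SE 0.0739, limma adjusted p = 0.000572). Etv1 was the scarce member, at 13.77, 11.45, 12.94 and 26.04 in siCasp8 and 13.5, 11.2, 5.78 and 9.03 in Scr. Its groups overlapped and it was not called (log2 fold change 0.63, 95% interval -0.16 to 1.43, limma adjusted p = 0.194), with a difference of 0.38 without siCasp8 replicate 4.

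Since long genes collect more reads, levels were set against each other only per kilobase of annotated exon (GENCODE M21, all isoforms joined). Per kilobase, Etv5 stood at 252 ± 12.3 in siCasp8 and 121 ± 2.89 in Scr, Etv4 at 214 ± 11.0 in siCasp8 and 159 ± 13.7 in Scr, and Etv1 at 1.21 ± 0.506 in siCasp8 and 0.744 ± 0.248 in Scr. By this measure the order of Etv4 and Etv5 differed between the groups. Without length their Scr means were alike, at 497 for Etv5 and 494 for Etv4, so their order in Scr rests on the annotated exon lengths. The log2 ratio of Etv5 to Etv4, taken within each library from normalized values without length, averaged 0.64 ± 0.06 in siCasp8 and 0.01 ± 0.15 in Scr, a difference of 0.63 with no overlap (exact two-sided permutation p = 0.0286). Summed over the 3 factors, the level per kilobase was 468 ± 21.3 in siCasp8 and 281 ± 11.7 in Scr.

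Sprouty proteins block the path from receptor to RAF. Spry4 was at 215, 219, 190 and 179 in siCasp8 libraries, against 107, 85.5, 78.5 and 101 in Scr libraries. The lowest siCasp8 value lay well above the highest Scr value, and Spry4 rose by 1.11 on the log2 scale (SE 0.129, limma adjusted p = 2.67e-05), or 2.16 times the Scr mean. Its more abundant relatives did not pass the test. Spry2 was at 979, 910, 910 and 902 in siCasp8 and 941, 845, 861 and 811 in Scr (log2 fold change 0.10, 95% interval -0.03 to 0.23). Spry1 was at 919, 934, 957 and 1026 in siCasp8 and 1044, 1090, 987 and 1028 in Scr (log2 fold change -0.11, 95% interval -0.23 to 0.01). For both genes the groups overlapped. The log2 ratio of Spry4 to Spry2 was -2.20 ± 0.12 in siCasp8 and -3.21 ± 0.19 in Scr, a difference of 1.01 (exact two-sided permutation p = 0.0286). Per kilobase Spry4 was the scarcest of the 3 in both groups, at 42.2 ± 4.08 in siCasp8 and 19.5 ± 2.76 in Scr, so the summed Sprouty level per kilobase, 816 ± 13.4 in siCasp8 and 791 ± 31.7 in Scr, differed by less than the Scr spread. Spry3 was not analysed here.

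Spred proteins recruit the RAS inactivator neurofibromin to the membrane. None of the 3 passed limma's test. Spred1, the most abundant of them per kilobase, had 5683, 6043, 6201 and 5584 in siCasp8 and 6289, 6060, 6537 and 6254 in Scr (log2 fold change -0.10, 95% interval -0.19 to -0.01, limma adjusted p = 0.0811). Spred2 averaged 1924 ± 32.9 in siCasp8 and 2038 ± 121 in Scr (-0.08, limma adjusted p = 0.192). Its siCasp8 values, up to 1954, all lay below the Scr values. Those ran from 1972 to 1987 apart from a single library at 2219, which raised the Scr mean and SD. Spred3 averaged 1672 ± 45.7 in siCasp8 and 1563 ± 151 in Scr (0.10, limma adjusted p = 0.235). Without Scr replicate 2 the differences were -0.040 for Spred2 and 0.035 for Spred3. The intervals of these genes exclude a change of the size seen for Etv5 or Spry4, since the bound farthest from 0 among them was 0.24.

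The inducible nuclear phosphatases went different ways. Dusp1, which dephosphorylates p38, JNK and ERK and is induced by growth factors, stress and glucocorticoids, had 408, 355, 387 and 437 in siCasp8, against 1069, 929, 868 and 962 in Scr. Every siCasp8 value was under the lowest Scr value, and the siCasp8 mean of 397 ± 34.5 was 41.5% of the Scr mean of 957 ± 84.2 (log2 fold change -1.27, SE 0.0814, limma adjusted p = 2.46e-07). This was the largest fall among the members. Dusp5, which is specific for ERK, had 960, 910, 909 and 837 in siCasp8 and 769, 790, 742 and 710 in Scr. It rose by 0.26 (SE 0.0598, limma adjusted p = 0.00376), with no overlap. Dusp4 had 2956, 2812, 2752 and 2889 in siCasp8 and 2712, 2729, 2609 and 2637 in Scr. All siCasp8 values of Dusp4 lay above all Scr values, but its difference of 0.09 did not pass (95% interval 0.01 to 0.18, limma adjusted p = 0.069). It passed after upper quartile rescaling of the libraries (0.12, limma adjusted p = 0.0263). Dusp2, best known from lymphocytes, averaged 7.92 ± 2.96 in siCasp8 and 8.23 ± 2.99 in Scr and was too low to be tested. Per kilobase, Dusp1 stood at 120 in siCasp8 and 289 in Scr, Dusp4 at 1041 in siCasp8 and 975 in Scr, and Dusp5 at 366 in siCasp8 and 304 in Scr, so that the lower Dusp1 and the higher Dusp4 and Dusp5 values offset each other in the family sum of 1530 ± 44.9 in siCasp8 and 1573 ± 49.9 in Scr.

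The phosphatases of the cytoplasm that prefer ERK, Dusp6, Dusp7 and Dusp9, included 2 that rose and 1 that was not called. Dusp6, the classic ERK feedback phosphatase, had 3263, 2991, 3109 and 3107 in siCasp8 and 2777, 2653, 2749 and 2780 in Scr. All 4 siCasp8 libraries were above the Scr range, and the rise was 0.19 (SE 0.0389, limma adjusted p = 0.00221), or 1.14 times the Scr mean. Dusp9 had 221, 208, 200 and 203 in siCasp8 and 138, 198, 142 and 146 in Scr, where 1 library nearly reached the siCasp8 values (log2 fold change 0.43, SE 0.121, limma adjusted p = 0.0138). Dusp7 averaged 787 ± 80.4 in siCasp8 and 706 ± 42.8 in Scr with overlapping groups (0.15, limma adjusted p = 0.135, or 0.087 as the difference without siCasp8 replicate 4). The summed level of the 3 per kilobase was 1306 ± 43.2 in siCasp8 and 1143 ± 10.2 in Scr. With estimated depth as a covariate the calls of Dusp6 (0.18, SE 0.0637, limma adjusted p = 0.0786) and Dusp9 (0.58, SE 0.190, limma adjusted p = 0.0537) were lost. For both genes the SE was larger than in the main fit, and the Dusp9 difference was not smaller. Dusp5 (0.38, limma adjusted p = 0.0103), Etv4, Etv5, Spry4 and Dusp1 were still called with that covariate.

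Dusp1 and Dusp6 were set against each other directly, as feedback phosphatases of the nucleus and the cytoplasm. The log2 ratio of Dusp1 to Dusp6 was -2.97 ± 0.10 in siCasp8 and -1.52 ± 0.12 in Scr, a difference of -1.45 (exact two-sided permutation p = 0.0286). The ratio of Dusp4 to Dusp6 differed by -0.09 (exact p = 0.0286 by permutation) and that of Dusp5 to Dusp6 by 0.08 (exact permutation p = 0.314). Of 9 such pairs 4 reached the smallest possible p, and after Benjamini-Hochberg adjustment over the pairs the lowest value was 0.0643, so none passed that correction. With 9 pairs and a smallest possible p of 0.0286, no pair could have passed it alone, however large its difference. The remaining pairs, Etv5 to Etv1, Spry2 to Spry1, Spred1 to Spred2 and Dusp6 to Dusp7, differed by 0.43, 0.21, -0.02 and 0.03, all with overlapping groups.

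**Figure D2:**
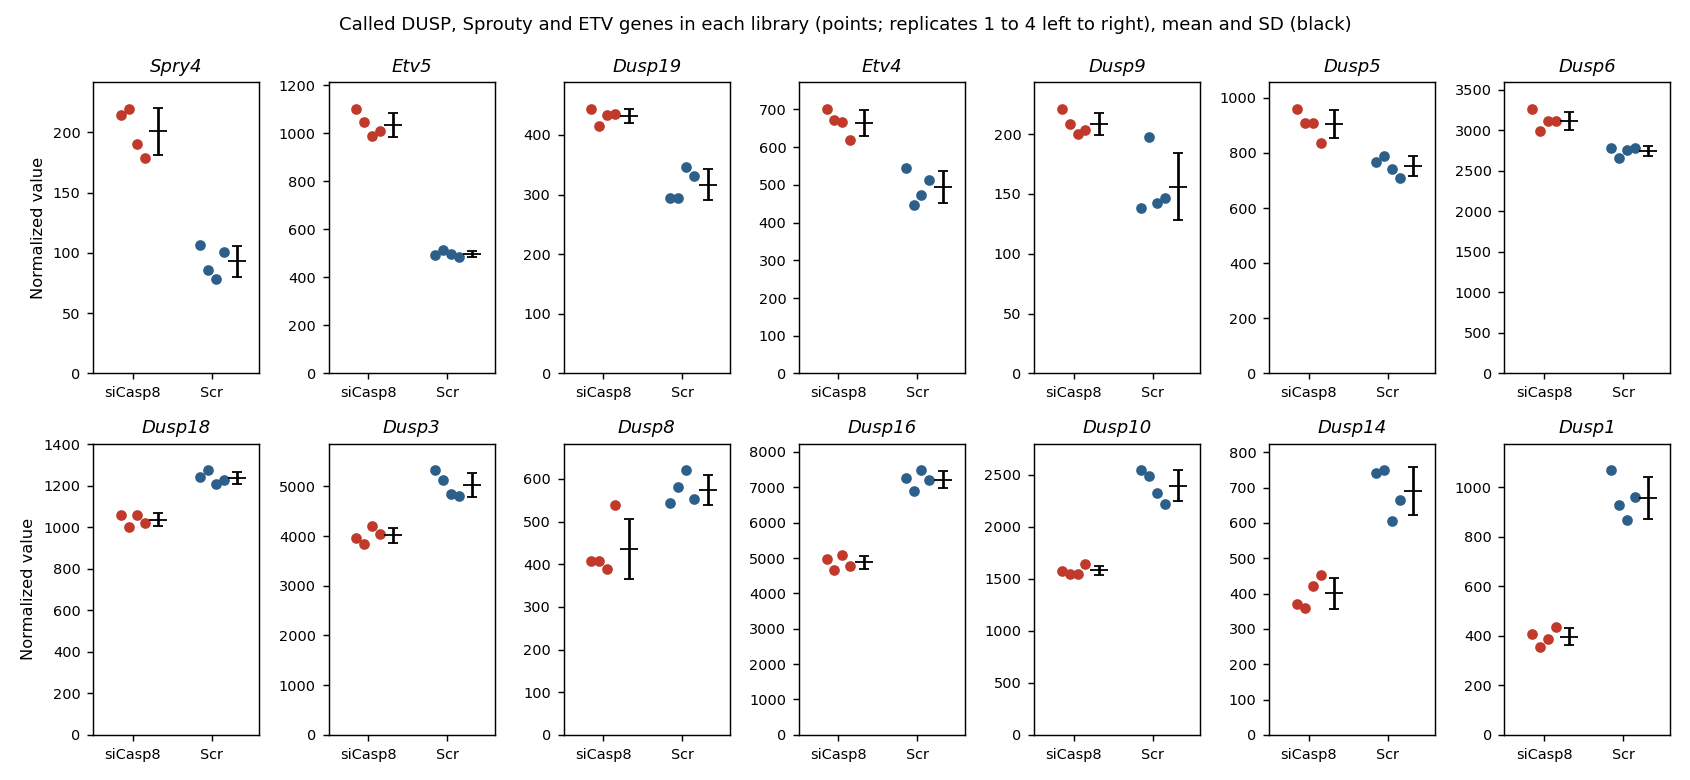
Normalized values (vertical axes, from 0) of the 14 called members are plotted for each siCasp8 and Scr library, with the mean and SD of each group beside the points. In every panel the 4 siCasp8 points lie on one side of the 4 Scr points, from Spry4 at 2.16 times the Scr mean to Dusp1 at 0.415 times it, and the Dusp8 and Dusp9 panels each show 1 library close to the other group.

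The phosphatases directed at the stress kinases JNK and p38 fell together. Dusp16 had 4983, 4669, 5081 and 4766 in siCasp8, against 7275, 6905, 7483 and 7200 in Scr. Dusp10 had 1578, 1548, 1551 and 1642 in siCasp8, against 2543, 2486, 2325 and 2223 in Scr. For both genes the groups were far apart, with siCasp8 means at 67.6% and 66.0% of the Scr means (log2 fold changes -0.57, SE 0.0390, limma adjusted p = 4.05e-07 and -0.60, SE 0.0496, limma adjusted p = 1.72e-06). Dusp8 had 407, 409, 388 and 540 in siCasp8 and 543, 581, 621 and 553 in Scr. It fell by 0.41 on the log2 scale (limma adjusted p = 0.00588), but its siCasp8 replicate 4 lay just under the Scr range, and the call was lost with the depth covariate (-0.45, limma adjusted p = 0.0771). Summed per kilobase, the 3 stood at 1234 ± 30.0 in siCasp8 and 1830 ± 48.1 in Scr.

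Genes for JNK, p38 and ERK5 and the kinases that activate them were set beside these phosphatases. Of 11 tested, none was higher and 2 were lower by limma, a called share of 18.2% against 40.2% of all tested genes. The JNK gene Mapk8 averaged 2845 ± 192 in siCasp8 and 3197 ± 164 in Scr (log2 fold change -0.17, limma adjusted p = 0.024), and the ERK5 gene Mapk7 averaged 1474 ± 79.3 in siCasp8 and 1677 ± 145 in Scr (-0.18, limma adjusted p = 0.0382). The groups overlapped for both. For 2 other genes of the list, not called, every siCasp8 library stood above every Scr library, as for 18.0% of all tested genes. Neither Mapk8 nor Mapk7 was called with the depth covariate, without a variance trend or without siCasp8 replicate 4, and at most 1 of them without any other library except Scr replicate 4. Upper quartile rescaling gave 2 higher (Map2k4 and Map2k7) and 1 lower, and quantile normalization the same 2 higher and 0 lower. The p38 genes Mapk11, Mapk12 and Mapk14 had log2 fold changes of 0.01, 0.00 and 0.00.

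Atypical DUSPs lack the kinase-binding domain of the other phosphatases. Of the 14 members 9 were tested, with 1 higher, 3 lower and 5 not called, a called share of 44.4% that is near the 40.2% of all tested genes. Dusp14, a small phosphatase, had 371, 358, 422 and 452 in siCasp8, against 741, 749, 604 and 665 in Scr, and fell by 0.78 on the log2 scale (SE 0.0936, limma adjusted p = 3.4e-05). Dusp3, which can dephosphorylate ERK and JNK, had 3968, 3837, 4204 and 4037 in siCasp8 and 5324, 5123, 4840 and 4801 in Scr (-0.32, SE 0.0436, limma adjusted p = 8.82e-05). Dusp18 had 1061, 999, 1061 and 1020 in siCasp8 and 1243, 1275, 1208 and 1226 in Scr (-0.26, limma adjusted p = 0.000782). None of these groups overlapped. Dusp19, which has been linked to the JNK cascade, was the one that rose, with 444, 415, 434 and 436 in siCasp8 and 295, 294, 346 and 331 in Scr (0.45, SE 0.0776, limma adjusted p = 0.000563). With the depth covariate the calls of Dusp18 (-0.21, limma adjusted p = 0.067) and Dusp19 (0.34, limma adjusted p = 0.0721) were lost.

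The most abundant member per kilobase was Dusp11, a phosphatase of RNA 5′ ends, at 1454 ± 58.5 in siCasp8 and 1327 ± 101 in Scr. Its log2 fold change of 0.13 narrowly missed the threshold (limma adjusted p = 0.0524), and it passed under several other settings, with limma adjusted p between 0.0025 (without Scr replicate 3, its highest Scr library) and 0.412 (with the depth covariate). Dusp22, Dusp12, Dusp23 and Dusp28 had log2 fold changes of -0.12, 0.05, 0.07 and 0.16 with overlapping groups and limma adjusted p of 0.137, 0.759, 0.757 and 0.113. Dusp23 was called with the depth covariate (0.56, limma adjusted p = 0.0475), and its Scr values ran from 484 to 845. Dusp13, Dusp15 and Dusp26 were under the test's minimum, with no library above 7.93, and Dusp21 and Dusp27 were listed at 0 in all 8 libraries. Annotated exons on the opposite strand cover 49.8% of the exon bases of Dusp12, 24.4% of Spry1, 22.1% of Dusp5 and 12.9% of Dusp3, and since it is not stated whether strand was used, reads of these genes and of their antisense partners cannot be told apart.

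**Figure D3:**
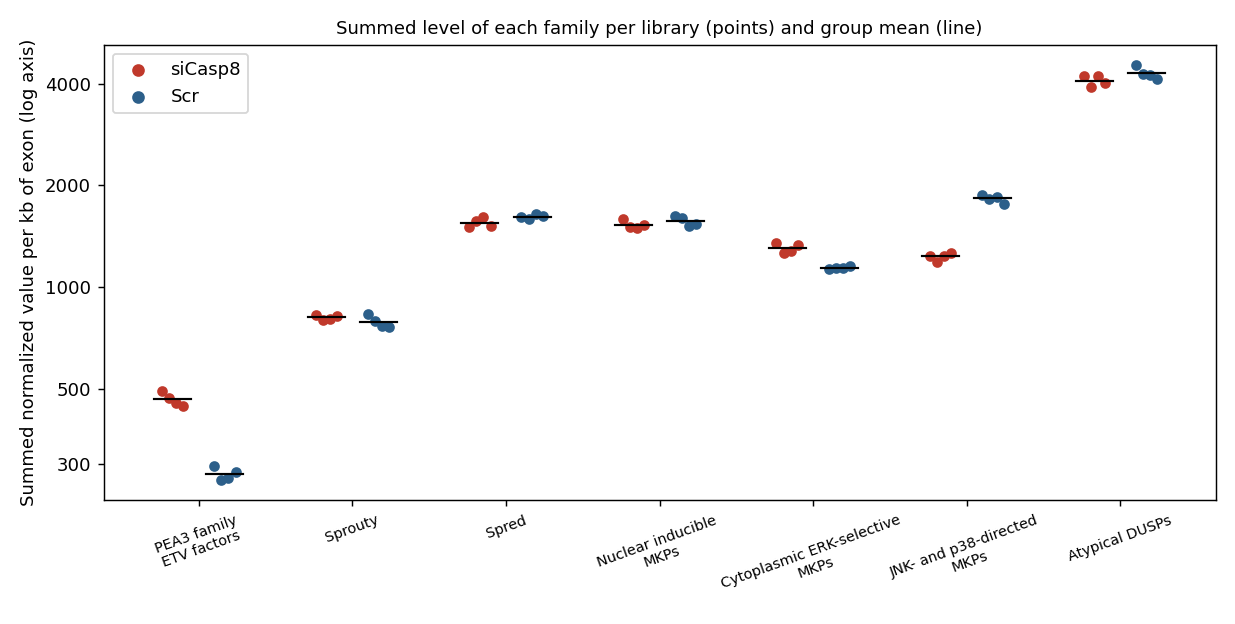
Summed normalized value per kilobase of exon (vertical log axis) is plotted for each family in each siCasp8 and Scr library, with the group means as lines. The groups separate upward for the PEA3 factors (468 in siCasp8, 281 in Scr) and the cytoplasmic ERK-selective phosphatases (1306 in siCasp8, 1143 in Scr), and downward for the JNK- and p38-directed phosphatases (1234 in siCasp8, 1830 in Scr).

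The inducible ERK feedback genes were then compared with the other DUSPs. The first list held Dusp1, Dusp2, Dusp4, Dusp5, Dusp6, Spry1, Spry2, Spry4, Spred1, Spred2, Etv1, Etv4 and Etv5, of which 12 were tested, with 5 higher, 1 lower and 6 not called. Of 19 other DUSPs 14 were tested, with 2 higher, 6 lower and 6 not called. Their median changes on the log2 scale were 0.14 for the feedback genes and -0.03 for the other DUSPs, beside 0.00 for all tested genes. No test of the difference between the lists was made, and the range of the feedback genes, -1.27 to 1.11, covered that of the other DUSPs, -0.78 to 0.45. Among all tested genes the shares were 19.4% higher and 20.8% lower.

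The genes upstream of ERK did not move one way. Of 15 tested receptor ligands 7 were higher and 5 lower (median 0.32 on the log2 scale), a called share of 80% against 40.2% of all tested genes. Btc, which encodes the EGF receptor ligand betacellulin, averaged 505 ± 57.3 in siCasp8 and 285 ± 16.4 in Scr (0.82, limma adjusted p = 1.7e-05), and Igf1 rose by 0.91 (limma adjusted p = 1.18e-05). The platelet-derived growth factor gene Pdgfb and the neuregulin gene Nrg1 fell by 0.72 and by 0.40 on the log2 scale (limma adjusted p = 2.09e-07 and 1.2e-05). With the depth covariate 4 ligands were higher and 2 lower. Of 13 tested receptor genes 7 were higher and 3 lower, a called share of 76.9%. The counts were 2 higher with the depth covariate and 1 lower, Egfr, under quantile normalization. Klb, which encodes the FGF co-receptor beta-Klotho, averaged 2233 ± 73.2 in siCasp8 and 1420 ± 115 in Scr (0.66, limma adjusted p = 3.09e-06), and Fgfr2 rose by 0.23. The EGF receptor gene Egfr averaged 21949 ± 769 in siCasp8 and 29071 ± 1395 in Scr (-0.40, limma adjusted p = 7.94e-06), and Fgfr3 fell by 0.23 on the log2 scale, a call lost under quantile normalization (-0.15, limma adjusted p = 0.0549).

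Within the chain from adaptor to kinase 4 of 23 genes were higher and 7 lower, with a median of -0.01. The called share of 47.8% was near the 40.2% of all tested genes. The kinase gene Araf rose by 0.19 and the RAS relative Mras by 0.38, while the RAS relative Rras2 and the phosphatase gene Ptpn11, which promotes RAS activation, fell by 0.41 and by 0.25 on the log2 scale. Of the 16 other brakes on receptors and RAS 3 were higher and 1 lower, a called share of 25%. The lower count was 2 without siCasp8 replicate 4, without any one of Scr replicates 1, 2 and 3, or with the replicate block. The RAS inactivator Rasa3 rose by 0.40 and the RAS degradation adaptor gene Lztr1 by 0.16, and Errfi1, which encodes an inhibitor of the EGF receptor, averaged 3571 ± 171 in siCasp8 and 4865 ± 161 in Scr (-0.45, limma adjusted p = 5.32e-06).

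Other output genes of ERK went both ways, with more of them lower than higher. Of 23 immediate early and ERK output genes 3 were higher and 10 lower, with a median of -0.12. The called share was 56.5% against 40.2% of all tested genes, of which 19.4% were higher and 20.8% lower. Leaving out 1 library gave 3 to 4 higher and 9 to 10 lower, and the depth covariate ended calls in both directions. Egr1, an immediate early transcription factor gene, averaged 5323 ± 262 in siCasp8 and 3229 ± 180 in Scr (0.72, limma adjusted p = 3.31e-07), and Zfp36, which encodes an mRNA decay factor, rose by 0.35 (limma adjusted p = 2.27e-05). The ETS factor genes Ets1 and Ets2 averaged 5722 ± 166 and 7643 ± 205 in siCasp8 and 7568 ± 139 and 9776 ± 117 in Scr, with log2 fold changes of -0.40 and -0.36 (limma adjusted p = 1.74e-06 and 3.05e-06). Of 16 tested phosphatases of the same class outside the DUSP symbols 4 were higher and 5 lower, a called share of 56.25%. With the depth covariate 2 were higher. The pseudophosphatase gene Styxl1 rose by 0.88, though depth as a covariate ended its call (0.84, limma adjusted p = 0.106), and Cdc14b by 0.16, and the cell cycle phosphatase gene Cdc25a and Ptp4a1 fell by 0.47 and by 0.46 on the log2 scale.

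**Figure D4:**
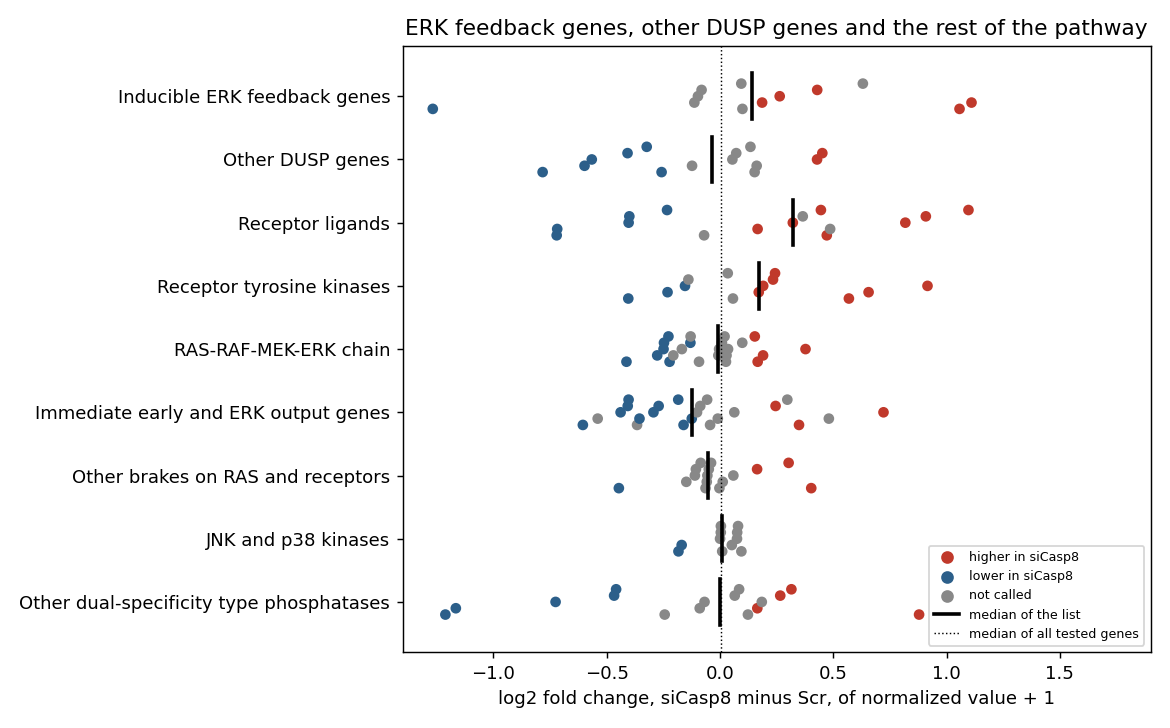
Each point is the log2 fold change (siCasp8 minus Scr, of the normalized value + 1) of 1 tested gene, by list, with the median of the list as a black bar and the median of all tested genes, 0.00, as a dotted line. The feedback genes spread from -1.27 to 1.11, the other DUSPs from -0.78 to 0.45, and the JNK and p38 kinases lie between -0.18 and 0.09.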

How the data were processed

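Poly-A RNA of 8 AML12 cultures was sequenced with Illumina TruSeq libraries, per the labels' protocols. Tools listed in the submitters' processing notes, with no role given by the authors, are DESeq2, sleuth, kallisto 0.44.0 and bcl2fastq 2.19, and the builds listed are GRCm38 and GRCh38. The values deposited by the authors are a normalized signal per gene symbol that, per the name of the table, are kallisto estimates normalized with DESeq2. The annotation and how transcripts were summed are not given in the sources used here. Groups come from the titles in the labels, and columns were matched by the library names that the labels repeat.

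A row without a symbol, 0.0481% to 0.0631% of a library's total, was left out. Depth was estimated as each library's total divided by the value of 1 read, its commonest low value. Of values up to 20.5 reads, 63.0% to 75.0% were within 0.1 read of a whole number, so whole reads were not recovered and no count test was run.

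Genes with a mean of at least 10 were tested with limma 3.58.1 in R 4.3.3 on log2(value + 1), siCasp8 minus Scr, with a variance trend and no covariate, two-sided, with Benjamini-Hochberg adjustment over all 14154 genes. Changes of low genes are understated on this scale. The method was tested on simulated data with independent noise and no depth difference between the groups, so that test does not bear on depth. Ratios used an exact permutation test over all 70 arrangements. Alternatives were other pseudocounts (10 and 0.5) and filters, other scalings, a depth covariate, a replicate block, no trend, and leaving out each library. Members and lists were chosen with earlier results of these data known. Every member is named, and from each pathway list up to 2 called genes per direction, those of smallest adjusted p, while marker genes and p38 genes were picked after their values were seen.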

Additional observations from a re-analysis of the deposited data

Results flagged for a closer look

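In 5 cases a single library stood apart from the other 3 of their group in a member's value, by more than Dixon's critical share of the group's range, and chance gives about 1 in 20 such groups, here out of 54 groups. Dusp8 was 540 in siCasp8 replicate 4, against 388 to 409 in the others of that group. Etv1 was 26.04 in the same library, against 11.4 to 13.8. Spry2 was 979 in siCasp8 replicate 1, against 902 to 910. Dusp9 was 198 in Scr replicate 2, against 138 to 146. Spred2 was 2219 in that library, against 1972 to 1987.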

How the results depend on the processing

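All 14 member calls kept their direction under every alternative run. Of these, 9 also kept an adjusted p under 0.05 throughout, and Dusp6, Dusp8, Dusp9, Dusp18 and Dusp19 lost it with the depth covariate, which called 5 members higher (Dusp23 among them) and 5 lower, 2764 genes over all (1289 higher and 1475 lower), 1 of the other DUSPs higher and 15 genes higher, against 28, over the pathway lists. For Dusp6, Dusp8, Dusp9, Dusp18 and Dusp19 the SE was larger with the depth covariate than in the main fit. The differences of Dusp8 and Dusp9 were also larger in size with it. Upper quartile rescaling and quantile normalization gave 9 members higher and 7 lower, adding Dusp4 and Dusp11. Upper quartile rescaling called 3148 genes higher and 2535 lower.

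Leaving out 1 library gave 4800 to 5719 genes called (2264 to 2751 higher and 2536 to 2968 lower), 7 to 8 members higher and 7 to 8 lower, and 5 feedback genes higher with 1 to 2 lower. The second lower one was Spred1 without siCasp8 replicate 3 (-0.12, adjusted p = 0.0389). The Spred1 to Spred2 and Dusp6 to Dusp7 ratios ran from -0.075 to 0.018 and from -0.015 to 0.10 when 1 library was left out. Directions turned only for values that were not called: Dusp12 was -0.016 and Spred3 -0.058 with the depth covariate, Dusp12 ran from -0.052 to 0.14 and Dusp23 from -0.033 to 0.23 when 1 library was left out, and the Spred1 to Spred2 ratio was 0.023 under quantile normalization. The causes were not tested.

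Same-numbered cultures deviated together only weakly (r = 0.0785, 0.0442, 0.169 and 0.0554 for replicates 1 to 4 across genes), but each correlated best with its own number. The main fit and the permutation tests treat the cultures as unpaired, and whether the numbers mark pairs was not tested. With the replicate block 6020 genes were called, against 5689 in the main fit, and 8 members were higher and 7 lower, the added one being Dusp11. Low members such as Etv1 and Dusp2 had means close to the test's minimum of 10, and the part of depth in their spread was not tested.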
